A study of Rattus norvegicus with 6 samples.

Results

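The transcripts of 5 extracellular matrix genes were followed in RNA sequencing of rat bone marrow mesenchymal stem cells: the fibrillar collagen genes Col1a1, Col1a2 and Col3a1, the fibronectin gene Fn1, and Sparc. They make up 5 of the 30560 genes in the deposited table and were chosen by Ensembl identifier: ENSRNOG00000003897 for Col1a1, ENSRNOG00000011292 for Col1a2, ENSRNOG00000003357 for Col3a1, ENSRNOG00000014288 for Fn1 and ENSRNOG00000012840 for Sparc. The study transfected cells kept under osteogenic differentiation with an siRNA against S100A16, a calcium-binding protein of the S100 family (siS100A16, 3 samples), or with a scrambled control siRNA (siNC, 3 samples), and the comparison addressed which transcripts depend on S100A16. Such a double-stranded RNA directs the cell to degrade the transcript whose sequence it matches. All 6 samples were differentiating cells, used between passages 3 and 5, and the labels name no untreated or undifferentiated sample. The labels do not say whether samples of a group came from separate cultures or animals, so each p-value covers only the variation among these libraries, part or all of which could be technical.

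Fibrillar collagens are the main load-bearing proteins of bone and of its precursor matrix. Type I collagen, the chief organic component of bone, is a triple helix built from the products of Col1a1 and Col1a2, and type III collagen is built from the product of Col3a1 alone. Fibronectin is laid down early as a network that binds cells through integrins and on which collagen fibrils assemble, and SPARC, also called osteonectin, is a secreted protein that binds collagen and calcium.

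The table pairs no identifier with a gene name, and the RefSeq table used here holds no Ensembl identifier, so the names rest on the list that defined the set and on a check of gene length. Length divides an FPKM value (reads scaled to gene length and to the total counted), and the lengths implied by the values were 5706 nt for Col1a1, 4561 nt for Col1a2, 4787 nt for Col3a1, 8128 nt for Fn1 and 1905 nt for Sparc. Each exceeded the lower bound set for the gene's coding sequence (4000 nt for each collagen, 7000 nt for Fn1 and 900 nt for Sparc) and was shorter than the gene's span in RefSeq, so all 5 were kept. Such a check can reject a wrong identifier but does not prove a right one. S100A16 itself, markers of the labelled cell type and of other marrow cells, and further collagen genes, processing enzymes and receptors could not be looked up for the same reason and are not analysed here.

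The totals of reads assigned to genes ranged over 5387539 to 6937001 in siS100A16 libraries and 7135826 to 8059327 in siNC libraries. Genes above 0 numbered 15778 to 16609 in siS100A16 and 17895 to 18038 in siNC. The siS100A16 libraries were less alike (Pearson r over tested genes 0.901 to 0.925) than the siNC libraries (0.973 to 0.980), and siS100A16 replicate 2 correlated more closely with siNC replicate 1 (0.948) than with any library of its own group. Values without siS100A16 replicate 2 are therefore given below, though leaving out the treated library most like a control favours deeper falls. Differential expression was tested with limma on log2(FPKM + 1) over the 12336 genes with a mean of at least 1 FPKM, which all 5 genes passed. A gene is said to have changed where its Benjamini-Hochberg adjusted p over all genes tested was under 0.05.

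RefSeq promoter windows in the GRCr8 rat build matched 2 of the 5 genes by symbol, Col1a2 and Sparc. Their upstream stretches are shown for that reason. Col1a2 codes for a fibril chain and Sparc for a protein that binds collagen. Both fell, as did Col1a1 and Fn1, which had no window. Capitals mark matches to any of 4 motifs, searched on both strands without overlap between them. The first was TATAAA, the TATA box at which the transcription machinery assembles. The second was CCAAT, bound by the factor NF-Y and, in the Col1a2 stretch, read on the other strand. The third was GGGCGG, the GC box bound by SP1. The last was CAGAC, which holds a half-site known to be bound by SMAD proteins, and which reads GTCTG where it lies on the other strand. The Col1a2 stretch is chr4:33518307-33518426 on the plus strand, bases 250 to 131 before the annotated start. The Sparc stretch is chr10:40038817-40039066 on the minus strand, bases 250 to 1 before it. Both are written 5′ to 3′.
Col1a2: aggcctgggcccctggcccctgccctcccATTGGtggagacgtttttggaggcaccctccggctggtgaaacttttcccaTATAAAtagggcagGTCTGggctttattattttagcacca
Sparc: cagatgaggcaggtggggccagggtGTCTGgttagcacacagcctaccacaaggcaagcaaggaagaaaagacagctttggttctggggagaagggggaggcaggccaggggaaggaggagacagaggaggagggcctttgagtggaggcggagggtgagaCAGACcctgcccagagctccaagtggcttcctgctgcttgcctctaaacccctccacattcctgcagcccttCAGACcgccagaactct
In the 250 bases before the start, Col1a2 held the TATA and CCAAT motifs once each and the SMAD half-site motif at 2 places, the one nearer the start lying outside the stretch shown. The TATA motif of Col1a2 lay 170 to 165 bases before the annotated start, and whether it serves that start was not tested. Sparc held the SMAD half-site motif at 3 places and none of the others. Over the same 250 bases of 33469 RefSeq promoters, the TATA motif was found in 12.9%, the CCAAT motif in 34.0%, the GC box in 30.5% and the SMAD half-site motif in 42.9%, so the motif that both genes hold is common, and a match is not evidence of binding.

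Of the 5 genes, 4 were lower after S100A16 siRNA and none was higher. Col1a1, Col1a2, Fn1 and Sparc fell past the test, while Col3a1 did not pass it (limma, Benjamini-Hochberg adjusted p). Over all tested genes 4.27% were called lower and 16.4% higher with values as deposited. That imbalance depended on scaling: median of ratios gave 848 genes lower and 894 higher, quantile normalization gave 858 lower and 705 higher, and removal of the length trend gave 655 lower and 754 higher. Among the 821 genes with a mean of at least 100 FPKM, the level class of all 5, 8.16% were called lower and 51.8% higher. The median log2 fold change of siS100A16 over siNC was -0.95 over the 5 genes, 0.17 over all tested genes and 0.57 over those with at least 100 FPKM. Without siS100A16 replicate 2 the log2 fold changes were -1.57 for Col1a1, -1.02 for Col1a2, -0.57 for Col3a1, -0.75 for Fn1 and -1.45 for Sparc, and the same 4 genes passed (Col3a1 adjusted p = 0.0662). With siS100A16 replicate 1 left out instead, every fall was shallower than with all libraries. The log2 fold changes were then -1.29 for Col1a1, -0.77 for Col1a2, -0.17 for Col3a1, -0.45 for Fn1 and -1.27 for Sparc. Fn1 did not pass in that fit (limma adjusted p = 0.0979), while Col1a1, Col1a2 and Sparc did. In bulk RNA, fewer cells that make a transcript and less of it per cell cannot be told apart.

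Col1a1 had the deepest fold change with values as deposited, though Sparc did with the length trend removed (-1.61 against -1.36). Col1a1 had 201, 298 and 294 FPKM in siS100A16 replicates 1 to 3, against 889, 690 and 622 FPKM in siNC replicates 1 to 3. The groups were far apart, with the highest siS100A16 library well below the lowest siNC library. The mean was 264 ± 54.8 FPKM in siS100A16 and 734 ± 138 FPKM in siNC (SD, n = 3 each), so the treated level was 36.0% of the control level. On the log2 scale the fold change was -1.48 (95% interval -1.93 to -1.02, SE 0.20; adjusted p = 0.00492 by limma). Only 1.91% of the 12336 tested genes had a lower fold change. The same share was 2.63% for Sparc, 5.94% for Col1a2, 11.5% for Fn1 and 19.9% for Col3a1.

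Col1a2, the gene for the partner chain of type I collagen, also fell, by less. Its values were 281, 400 and 410 FPKM in siS100A16 replicates 1 to 3 and 794, 692 and 602 FPKM in siNC replicates 1 to 3, again without overlap. The siS100A16 mean of 364 ± 71.6 FPKM was 52.3% of the siNC mean of 696 ± 96.3 FPKM (SD, n = 3 each). On the log2 scale the fold change was -0.95 (95% interval -1.36 to -0.53, SE 0.18; adjusted p = 0.0114 by limma). Without siNC replicate 2 the adjusted p was 0.0573, with the log2 fold change still -0.95.

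Col3a1, the gene for type III collagen, was the lowest of the 5 and showed no called change. It had 90.0, 159 and 124 FPKM in siS100A16 replicates 1 to 3 and 177, 157 and 142 FPKM in siNC replicates 1 to 3. The groups overlapped, because siS100A16 replicate 2 lay above siNC replicates 2 and 3, and the siS100A16 value was the lower one in 7 of the 9 pairs of libraries. On the log2 scale the fold change was -0.38 (SE 0.21; adjusted p = 0.236 by limma), with a 95% interval from -0.87 to 0.10 that leaves room for a fall close to that of Col1a2 as well as for none. Without siS100A16 replicate 1 the log2 fold change was -0.17 (adjusted p = 0.487), and without siS100A16 replicate 2 it was -0.57 (adjusted p = 0.0662). Its call depended on scaling: with quantile normalization, which gives all libraries the same distribution, the log2 fold change was -0.87 and the adjusted p 0.0414.

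Fn1, coding for fibronectin, had a smaller fall that lay at the edge of the threshold. Its values were 430, 649 and 641 FPKM in siS100A16 replicates 1 to 3, against 986, 925 and 751 FPKM in siNC replicates 1 to 3. All siS100A16 libraries were below all siNC libraries, and siS100A16 replicate 2 and siNC replicate 3 came closest to each other. The mean was 573 ± 124 FPKM in siS100A16 and 888 ± 122 FPKM in siNC (SD, n = 3 each), or 64.5% of the control level. On the log2 scale the fold change was -0.65 (95% interval -1.08 to -0.21, SE 0.19; adjusted p = 0.0469 by limma), and the call was lost in 5 of the 6 fits that left out a library, with adjusted p up to 0.161, and under several other settings. Fn1 is also the longest of the 5 genes, and with each library's trend with gene length removed its log2 fold change was -0.46 (adjusted p = 0.119).

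Sparc was by far the most abundant of the 5 and fell by an amount not told apart from that of Col1a1. It had 5486, 7062 and 5339 FPKM in siS100A16 replicates 1 to 3 and 16338, 15246 and 12974 FPKM in siNC replicates 1 to 3. The lowest siNC library was thus far above the highest siS100A16 library. The siS100A16 mean was 5963 ± 955 FPKM, 40.1% of the siNC mean of 14853 ± 1716 FPKM (SD, n = 3 each). On the log2 scale the fold change was -1.32 (95% interval -1.66 to -0.98, SE 0.15; adjusted p = 0.00438 by limma). Despite this fall Sparc stayed among the most abundant transcripts, at ranks 9, 6 and 8 of all genes by FPKM in siS100A16 replicates 1 to 3 and ranks 5, 7 and 7 in siNC replicates 1 to 3. Quantile normalization, which works on these ranks, reduced its log2 fold change to -0.26 (adjusted p = 0.301). When all genes above 0 were tested without a filter on level, its fold change was as reported but its adjusted p was 0.0669.

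**Figure D1:**
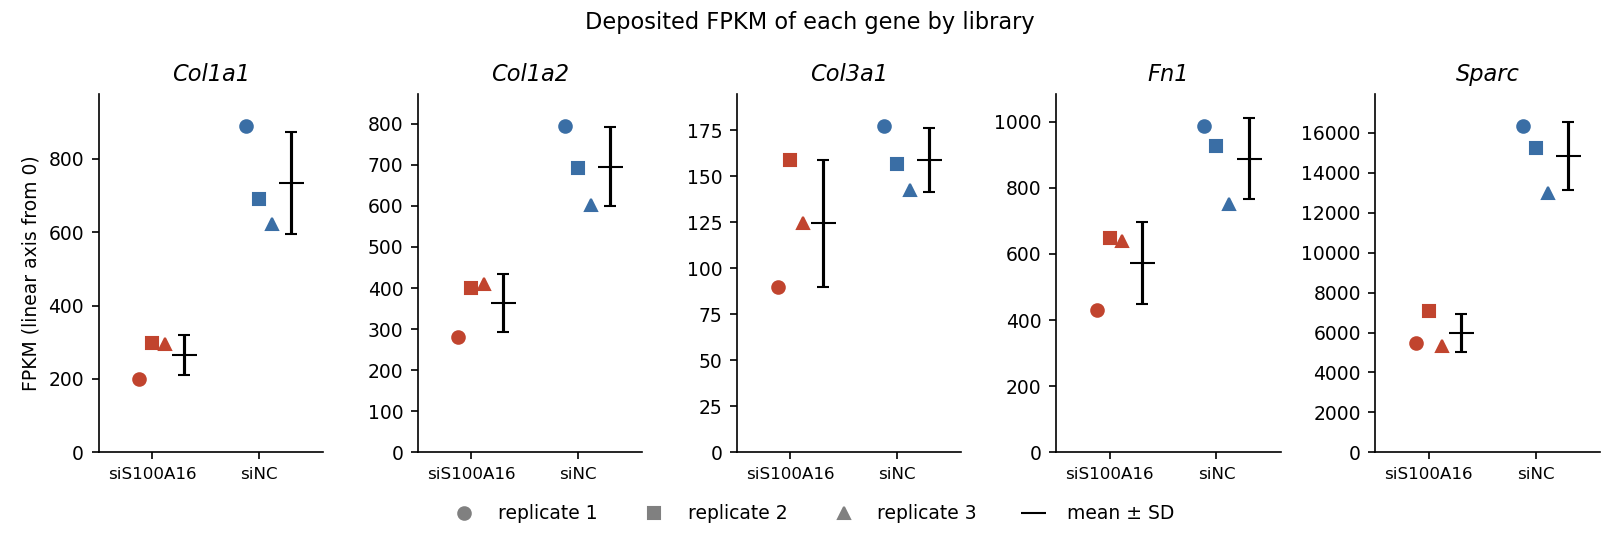
FPKM of each gene (linear axes from 0) in the 3 siS100A16 and 3 siNC libraries, with the mean and SD of each group beside the points and the symbol giving the replicate number. The groups are separate for Col1a1, Col1a2, Fn1 and Sparc and overlap for Col3a1, where siS100A16 replicate 2 stands at 159 FPKM.

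The groups did not overlap for 4 of the 5 genes, with every siS100A16 value below every siNC value, as held for 12.2% of all tested genes. Ranks by FPKM are a description only, since places lie closer together among less abundant genes and since 51.8% of the genes with at least 100 FPKM were called higher. Col1a1 ranked 504, 276 and 302 among all genes in siS100A16 replicates 1 to 3, against 56, 74 and 80 in siNC replicates 1 to 3. Col1a2 ranked 315, 186 and 194 in siS100A16 and 65, 73 and 87 in siNC. Fn1 ranked 193, 96 and 106 in siS100A16 and 48, 52 and 67 in siNC. Col3a1 ranked 1113, 590 and 762 in siS100A16 and 353, 405 and 478 in siNC, but a loss of places is no sign of a fall: at nearly equal FPKM, siS100A16 replicate 2 and siNC replicate 2 had it at ranks 590 and 405.

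Libraries within a group differed in a shared way. In siS100A16, replicate 1 had the lowest FPKM for the 3 collagens and Fn1, while for Sparc replicate 3 was lowest. In siNC, replicate 1 had the highest FPKM and replicate 3 the lowest for all 5 genes. The coefficient of variation between libraries ran from 16.01% (Sparc) to 27.5% (Col3a1) in siS100A16 and from 11.02% (Col3a1) to 18.9% (Col1a1) in siNC. Every gene was read deeply, with at least 2990 reads in any library (Col3a1 in siS100A16 replicate 1), so that counting error was at most 1.83% of a library's value and far below the spread between libraries. Amplified reads are not independent molecules, and this figure covers counting error only.

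Together the 5 genes took a smaller part of the sequencing output. They held 1.68%, 2.30% and 1.95% of the reads in siS100A16 replicates 1 to 3 and 4.87%, 4.44% and 3.78% in siNC replicates 1 to 3. The mean share was 1.98% ± 0.311 in siS100A16 and 4.36% ± 0.548 in siNC (SD, n = 3 each; two-sided exact permutation test, p = 0.1, the lowest that 3 samples against 3 allow). Sparc made up most of it. The other 4 genes alone held 0.635%, 0.955% and 0.935% of the reads in siS100A16 and 1.76%, 1.54% and 1.31% in siNC, so the groups stayed apart without Sparc as well. The 95% Wilson interval of a single share reached at most 0.0153 percentage points to either side for the 5 genes. It covers counting error only and is far narrower than the SD between libraries.

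Within a library, the FPKM ratio of 2 genes is unaffected by a single scale factor for the library, though not by quantile normalization or by removal of the length trend, which shift genes of one library by unequal amounts. The FPKM ratio of Col1a1 to Col1a2 was 0.715, 0.745 and 0.717 in siS100A16 replicates 1 to 3 and 1.12, 0.998 and 1.03 in siNC replicates 1 to 3. Per length, Col1a1 thus stood below its partner in all siS100A16 libraries, while the pair was nearly level in siNC. The mean log2 ratio was -0.46 ± 0.03 in siS100A16 and 0.07 ± 0.08 in siNC (SD, n = 3 each), a difference of -0.53 (exact two-sided permutation p = 0.1, adjusted p = 0.125 over the 5 tests made on library values).

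The level of Col3a1 relative to Col1a1 was higher in every siS100A16 library than in every siNC library. A ratio to Col1a2, the other type I chain gene, would differ by less, since Col1a2 fell by less, and was not tested. The ratio of Col3a1 to Col1a1 was 0.448, 0.532 and 0.423 in siS100A16 replicates 1 to 3, against 0.199, 0.227 and 0.229 in siNC replicates 1 to 3, or 2.13 times as high in siS100A16 on the log2 mean. Fn1 relative to Col1a1 was 2.14, 2.18 and 2.18 in siS100A16 and 1.11, 1.34 and 1.21 in siNC. These 2 ratios did not overlap between groups, and their log2 means differed by 1.09 and 0.83 (exact two-sided permutation p = 0.1 each, adjusted p = 0.125). Both are divided by Col1a1, the gene with the deepest fall as deposited, so they are not independent of each other. Only 1.91% of the tested genes had a lower fold change than Col1a1 as deposited. Most genes set over it would thus give a higher ratio in siS100A16, so the direction of both was close to given beforehand. The Fn1 to Col1a1 ratio hardly varied among the siS100A16 libraries (SD 0.02 on the log2 scale, n = 3), although both levels did. Sparc relative to Col1a1 gave no such separation, at 27.3, 23.7 and 18.1 in siS100A16 and 18.4, 22.1 and 20.9 in siNC, and the log2 means differed by 0.16 (exact two-sided permutation p = 0.5, adjusted p = 0.5). Which of these genes fell more also turned with the processing: the log2 fold changes of Sparc and Col1a1 were -0.26 and -1.88 with quantile normalization and -1.61 and -1.36 with the length trend removed. Without siS100A16 replicate 2 the differences in log2 ratio were -0.55 for Col1a1 to Col1a2, 1.00 for Col3a1 to Col1a1, 0.83 for Fn1 to Col1a1 and 0.13 for Sparc to Col1a1, and the combined share of reads differed by -2.55 percentage points, against -2.39 with it. With siS100A16 replicate 1 left out instead, the combined share differed by -2.24 percentage points.

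**Figure D2:**
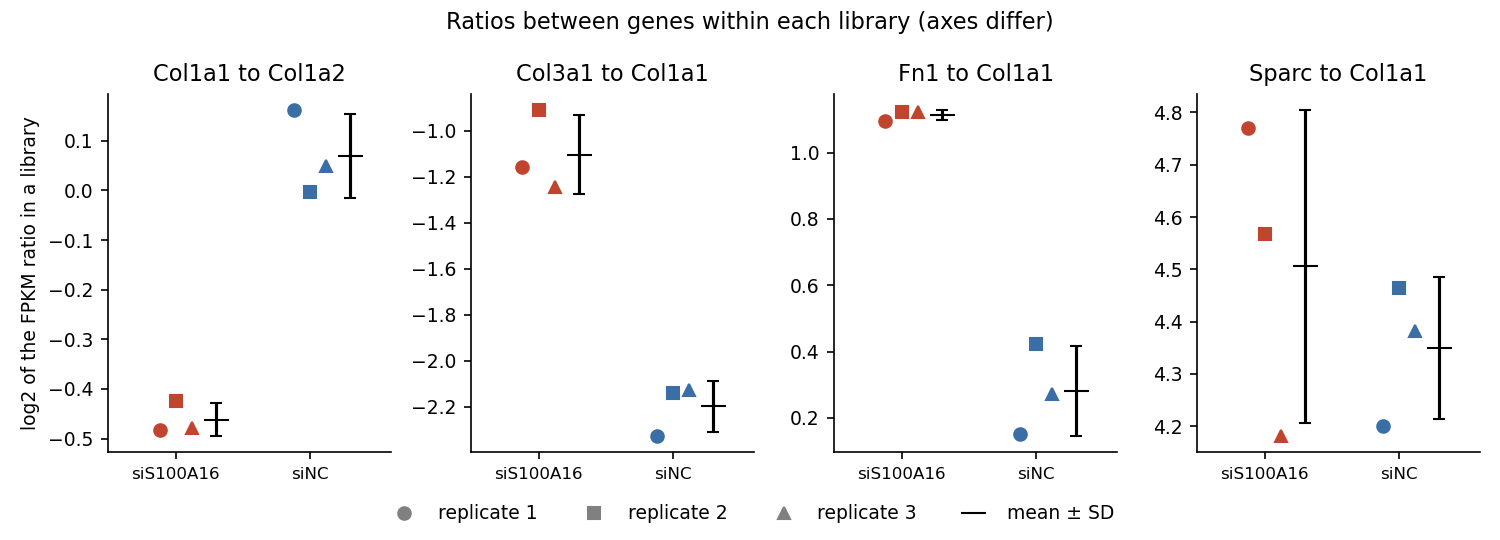
log2 of the FPKM ratio between pairs of genes inside each of the 3 siS100A16 and 3 siNC libraries, with group mean and SD (vertical axes differ between panels and do not start at 0). Col1a1 to Col1a2 is lower in siS100A16 and Col3a1 to Col1a1 and Fn1 to Col1a1 are higher, without overlap, whereas Sparc to Col1a1 overlaps.

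By level per length, the order in every siS100A16 library was Sparc, Fn1, Col1a2, Col1a1 and Col3a1. In siNC it was Sparc, Fn1, then Col1a1 and Col1a2 within their spread of each other, then Col3a1. Col1a1 was above Col1a2 in siNC replicates 1 and 3, and just below it in siNC replicate 2.

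All 5 fold changes were set beside scaling and gene length, since both shift the whole table. Median-of-ratios scaling moved the median log2 fold change of all tested genes to -0.03 from 0.17 and made each of the 5 falls deeper, with log2 fold changes of -1.72 for Col1a1, -1.19 for Col1a2, -0.63 for Col3a1, -0.89 for Fn1 and -1.57 for Sparc. All but Col3a1 (adjusted p = 0.0819) passed the test there. Long genes as a class had lower fold changes: the 2207 tested genes of at least 4000 nt had a median of -0.10, with 5.62% called lower and 3.22% higher. Of those, 19 genes, among them the 3 collagens and Fn1, also had a mean of at least 100 FPKM. The median of these 19 was -0.24, with 6 called lower and 1 higher. The genes called lower include Col1a1, Col1a2 and Fn1 themselves, so this class is not a separate background for them. Removing the length trend left Col1a1 at -1.36, Col1a2 at -0.89 and Sparc, the shortest of the 5, at -1.61 (limma adjusted p = 0.00885, 0.0192 and 0.00465). Abundance moved with the calls too: of the 53 genes with a mean of at least 1000 FPKM, the class of Sparc, 30.2% were called lower and 32.1% higher. The part of length and abundance in the falls was otherwise not tested.

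**Figure D3:**
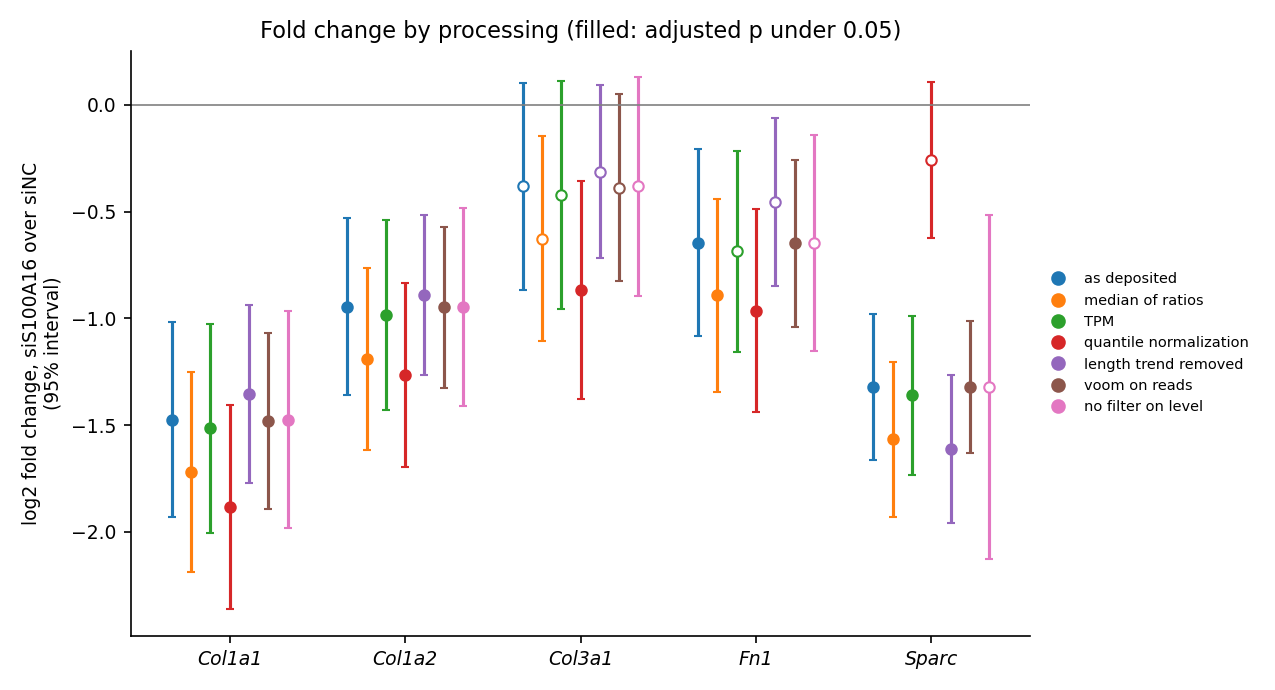
log2 fold change of siS100A16 over siNC with its 95% interval for each gene under 7 ways of processing, with filled points for an adjusted p under 0.05. Col1a1 and Col1a2 pass in all of those shown, Fn1 in 4, Sparc in all but quantile normalization and the fit without a filter, and Col3a1 only with quantile normalization; no fold change is above 0.

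**Figure D4:**
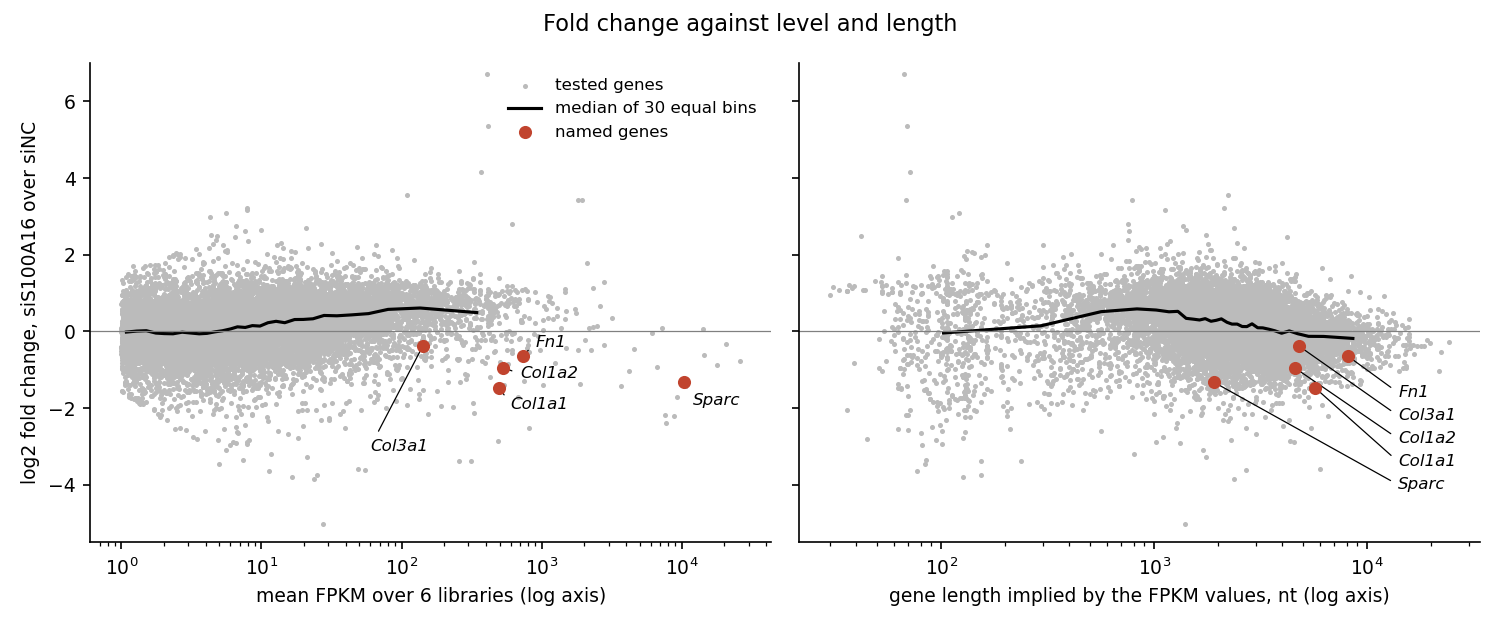
log2 fold change of every tested gene with a length (grey) against its mean FPKM and its length (log axes), with the median over 30 bins of equal size (line) and the 5 genes in red. The 5 genes lie below the line by length, and by level below the line or, for the 4 that lie past its last bin, below its end, which is above 0; Col1a1 and Sparc are the deepest of them, at -1.48 and -1.32.

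Among 816 other genes with a mean of at least 100 FPKM, 41 had a pattern over the 6 libraries that correlated above 0.9 with the mean log2(FPKM + 1) of the 5 genes, and 19 above 0.95. The most similar was ENSRNOG00000005888 (Pearson r = 0.991, n = 6 libraries), with 298 ± 54.7 FPKM in siS100A16 and 785 ± 178 FPKM in siNC (SD, n = 3 each). Next came ENSRNOG00000017307 (r = 0.991), with 61.5 ± 25.2 FPKM in siS100A16 and 168 ± 27.3 FPKM in siNC. After it stood ENSRNOG00000006723 (r = 0.988), with 91.4 ± 25.5 FPKM in siS100A16 and 264 ± 31.7 FPKM in siNC. Its log2 fold change was -1.55. These correlations mostly carry the difference between the groups, all points share the same 6 libraries, and the table gives no names for these identifiers.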

How the data were processed

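The deposited table holds FPKM values for 30560 genes in 6 columns, which the authors made from their reads. The tools named, per the submitters' processing notes, are HISAT2 2.1.0 and DESeq2 1.14.1, whose roles are unstated. The notes name the mouse build mm10, whereas all 30560 identifiers carry the rat prefix. No label or header names a counter, annotation or filter. The columns named Con were tied to siNC by name and number. Those named Exp were tied to siS100A16 by number, as the only other group in the labels. The level of S100A16 could not be looked up, so this assignment, on which the direction of every fold change rests, was not checked. Reads, totals and lengths were worked out from the FPKM values, whose ratios between libraries are ratios of whole reads (relative tolerance 3e-12, lengths whole within 0.002 nt). Common factors of read number and length are lost: the reads summed to 99.6% to 99.7% of the totals.

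The test was limma 3.58.1 (R 4.3.3) applied to log2(FPKM + 1), its variance prior following the level, group as its sole term and a single variance for each gene across groups, two-sided, over genes averaging at least 1 FPKM. The pseudocount of 1 understates the change of low genes. Shares and ratios were compared with exact two-sided permutation tests (SciPy 1.17.1). The fit and the reading of whole reads were tested on simulated data. Alternatives were pseudocount, filter, scaling, variance prior, sample weights, limma voom on the reads, the replicate block and each library left out. Removal of the length trend (lowess, span 0.3) was chosen after seeing the data. The genes, lists and tests were chosen with earlier results of these data known. Named genes are the 5, S100a16 and 5 lists of matrix genes where an identifier could be paired, which none could, and the 3 most similar genes, given by identifier.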

Additional observations from a re-analysis of the deposited data

How the results depend on the processing

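Of 85 alternative fold changes of the 5 genes, 70 kept their direction and side of the threshold, 14 kept the direction and lost the call, 1 gained it, and none reversed. The 70 include the fits in which Col3a1 stayed uncalled, and most of the 14 losses were of Fn1. Fn1 lost its call with a pseudocount of 0.1 (-0.65), no filter (-0.65), TPM (-0.69), no variance trend (-0.65), the length trend removed (-0.46) and the replicate block (-0.65, adjusted p = 0.0505). Sparc lost it with no filter (-1.32) and quantile normalization (-0.26), and Col3a1 gained one with the latter (-0.87). Without single libraries the log2 fold changes ran from -1.59 to -1.29 for Col1a1, -1.05 to -0.77 for Col1a2, -0.57 to -0.17 for Col3a1, -0.76 to -0.45 for Fn1 and -1.45 to -1.25 for Sparc; Col1a2 lost its call without siNC replicate 2, and Fn1 without each library other than siS100A16 replicate 2. The cause was not tested, beyond the fewer samples in these fits. The 2556 calls over all genes numbered 1409 after removal of the length trend, 1563 with quantile normalization and 552 to 3182 without single libraries. The combined share differed by -1.74 percentage points of summed FPKM, against -2.39 of reads. Same-numbered libraries did not deviate together (correlations -0.03, 0.05 and 0.04), so the block pairs nothing known. It changed no other call.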
